A study of Mus musculus with 4 samples.

Results

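The 10 core circadian clock genes of the mouse were followed in HT-22 cells with and without induced Pja2. They comprise the activators Arntl, Clock and Npas2, the repressors Per1, Per2, Per3, Cry1 and Cry2, and the nuclear receptor genes Nr1d1 and Nr1d2. The genes were taken from the deposited expression table wherever the symbol of a row equalled 1 of these names, which found 10 of 10 among 24689 genes. Of these, 9 reached a mean of 1 CPM (reads scaled to the total of each library) and were tested, together with 13276 genes in all, and Npas2 did not. HT-22 is an immortalised line of mouse hippocampal origin. Both groups were HT-22 cells at passages 21 to 24. The 2 control libraries are called uninduced in 1 label and WT in another, and the 2 induced libraries carry the labels Induced Pja2 and Pja2-pb. The labels give neither the means of induction nor a time of harvest or a synchronising step, and they do not say whether both groups came from 1 line or whether the replicates were separate cultures. P-values therefore measure the spread between these libraries, which may be technical.

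In the mammalian clock, the proteins of Arntl (BMAL1) and Clock, or its relative Npas2, bind E-box sequences as a pair and switch on the Per and Cry genes, whose products return to the nucleus and inhibit that pair. The same pair switches on Nr1d1 and Nr1d2, which encode the nuclear receptors REV-ERB alpha and REV-ERB beta. These repress Arntl through elements that the ROR receptors also bind, and this second loop is tied to the first. The loops run in most cells of the body, hippocampal neurons and cultured fibroblasts included, and cells of a culture that has not been synchronised drift out of phase with each other, so that a bulk sample averages over their phases.

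The libraries held 25787452 to 35262653 reads in genes. Pja2 itself, the RING-type ubiquitin ligase that was induced, stood at 6167 and 5881 normalized reads in the controls against 54829.8 and 54244 in the induced cells (9.05-fold). Normalized reads are read counts divided by the authors' scaling factor of each library. Of 12 neuronal markers, 6 had a row in the table, and 2 of these reached 1 CPM, Tubb3 at 20.2 and Camk2a at 2.06. Those at under 1 CPM were Syp, Syt1, Slc17a7 and Prox1, with Syp highest at 0.41. All 7 fibroblast and mesenchyme markers reached it, with summed levels of 12570.3 and 11105 CPM in the controls against 10786 and 10677.5 CPM in the induced cells. Within this list 1 of 7 rose, 1 fell and 5 did not pass, against 2.08% of all tested genes called higher and 1.34% called lower. Col3a1, a fibrillar collagen gene, fell from 81869 and 68553 normalized reads to 47479 and 48561 (limma, adjusted p = 0.0309). Acta2, which encodes smooth muscle actin, rose from 207 and 143 to 393 and 403 (adjusted p = 0.0402). The part of these changes in the clock gene results was not tested. The neuronal sum was 23.2 and 19.1 CPM in the controls against 25.8 and 23.3 CPM in the induced cells. Of 5 astrocyte, 5 oligodendrocyte and 5 microglia markers, 2, 1 and 2 reached 1 CPM, with Slc1a3 highest at 107. Their sums over the libraries were 92.5 to 130.4, 1.202 to 3.32 and 50.7 to 69.2 CPM. The microglia sum was mostly Tmem119, at a mean of 55.5 CPM. Aif1, Cx3cr1 and Csf1r stood at 2.14, 0.15 and 0.13 CPM, and P2ry12 had no row.

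Of the clock genes, Nr1d1 rose close to 2-fold in induced cells and was the 1 of 9 tested that passed the threshold, against 3.42% of all tested genes called in either direction and 2.08% called higher. The groups did not overlap in 8 of the 9, the exception being Clock, and 51.3% of all tested genes were apart in this way. Nr1d1, Nr1d2, Per1 and Per3 had both induced libraries above both controls, and Arntl, Per2, Cry1 and Cry2 had both below, against 26.2% and 25.1% of all tested genes. The median log2 fold change of the 9 was 0.00, the same as for all tested genes, while the median of its absolute size was 0.29 against 0.14 for all tested genes. With 5 of the 9 at an unadjusted p under 0.05 (19.1% of all tested genes), 3 of them lower, limma called 0 lower, and limma voom on the recovered reads also called 0 lower. In bulk RNA, a change in all cells and a change in the share of cells at 1 phase or of 1 kind cannot be told apart.

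**Figure D1:**
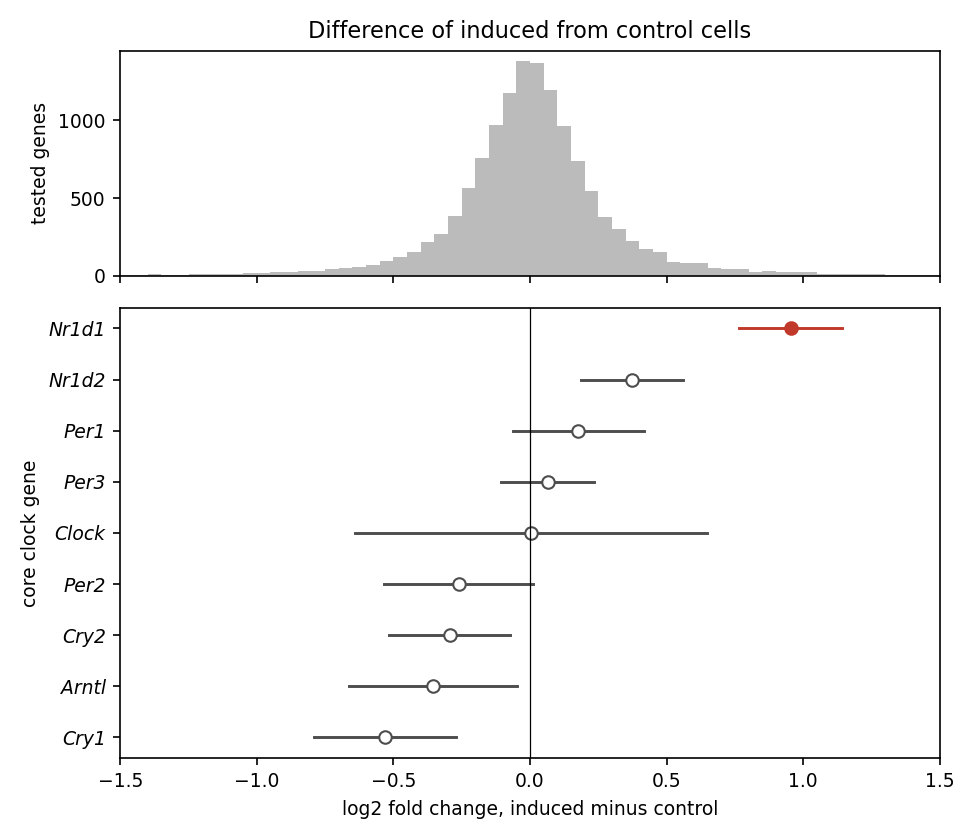
Log2 fold change of induced against control cells. The upper panel counts tested genes in bins of 0.05, with 121 genes beyond 1.5 not drawn, and the lower panel gives each tested clock gene with its 95% confidence interval, not adjusted for the number of genes. Nr1d1 (filled) is the gene past the threshold, at 0.95, and Cry1 lies lowest at -0.53.

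Nr1d1 (ENSMUSG00000020889, chromosome 11) encodes REV-ERB alpha, a receptor for heme that recruits corepressors to its targets. It had 1461 and 1579.7 normalized reads in the controls against 2882 and 3008 in the induced cells. The lower induced library lay far above the higher control, and the libraries of a group lay within 1.08-fold of each other. The ratio of the means was 1.94, with a 95% interval of 1.70 to 2.21 from the limma fit (log2 fold change 0.95, SE 0.08, adjusted p = 0.00698). By p-value Nr1d1 ranked 39 of 13276, and 178 genes (1.34%) had a log2 fold change at least as high. Its call was kept in 13 of 13 alternative analyses, each single library left out among them, with log2 fold changes of 0.90 to 1.01 and adjusted p-values up to 0.0492.

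Because the library kit does not mark the strand, reads from exon sequence shared by Nr1d1 and Thra, a thyroid hormone receptor gene on the opposite strand, cannot be told apart. In the GENCODE M21 annotation 263 bases, 8.55% of the exon sequence of Nr1d1, are shared with exons of Thra. Thra had 3349 and 3330.0 normalized reads in the controls against 3418 and 3469 in the induced cells. Its level was almost the same in all libraries, with a ratio of means of 1.03 (adjusted p = 0.743).

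Nr1d2 (ENSMUSG00000021775, chromosome 14) encodes REV-ERB beta, which shares targets with REV-ERB alpha. It had 3669 and 3295 normalized reads in the controls against 4483 and 4527 in the induced cells. Both induced libraries were higher, by a ratio of means of 1.29 (interval 1.14 to 1.47), but the gene did not pass over all genes (log2 fold change 0.37, SE 0.08, adjusted p = 0.0642). It passed in 0 of 13 alternative analyses, with adjusted p-values of 0.0561 to 0.204.

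Levels per kilobase of exon divide by the merged length of all annotated exons of a gene, not by that of the transcripts present. Orders and ratios between genes therefore depend on this length. By this measure Nr1d2 was the most abundant clock gene in control cells (644 ± 48.9 normalized reads per kilobase, SD, n = 2) and Nr1d1 the next (494 ± 27.2). In induced cells the order was turned, with Nr1d1 at 957 ± 28.9 and Nr1d2 at 833 ± 5.66. The ratio of Nr1d1 to Nr1d2 per kilobase was 0.700 and 0.843 in the control libraries and 1.13 and 1.17 in the induced ones. The ratio was higher in both induced libraries (two-sided exact permutation test of the log ratio, p = 0.333, the smallest that 2 against 2 can give).

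**Figure D2:**
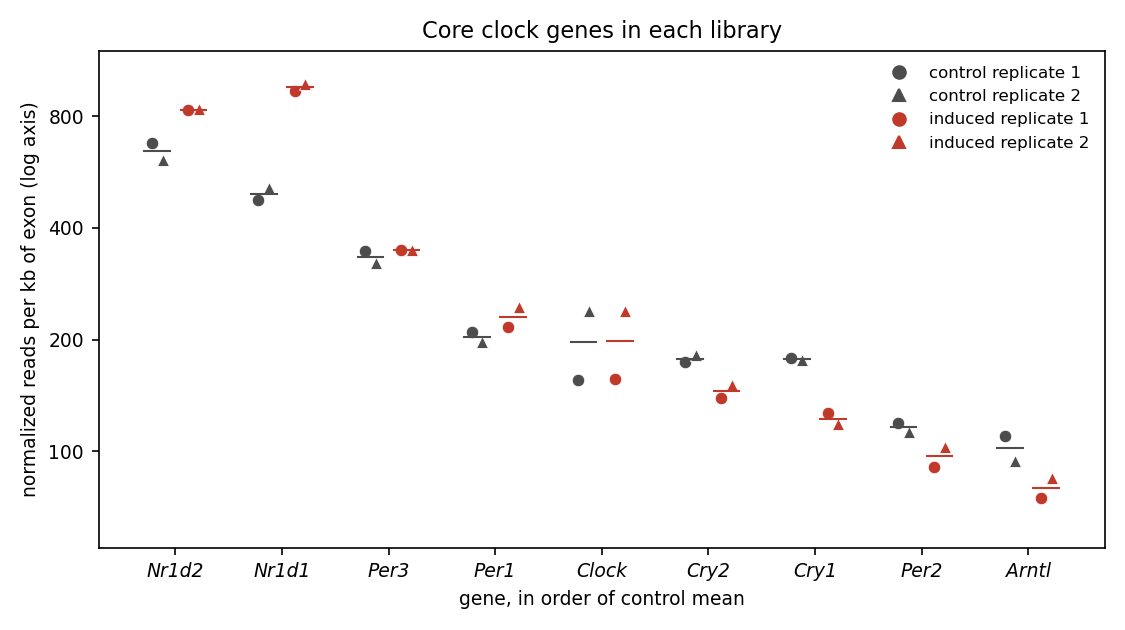
Level of each tested clock gene in each of the 4 libraries, as normalized reads per kilobase of exon on a log axis. Circles are replicate 1, triangles replicate 2, and the bars are group means. Nr1d1 moves from 494 to 957, while for Clock the replicates of a group are far apart and the groups are alike.

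The sequence before the start site is shown for Nr1d1, the gene that passed, and for Nr1d2 and Cry1, the nearest to the threshold. It is also shown for 1 window of Per1, which held the most kinds of match, while the other window of Per1 held none. Each stretch is read 5′ to 3′ on the gene's strand from the RefSeq promoter table (build GRCm38.p6). It ends at the start site or before the first base that GENCODE M21 puts in an exon. Capitals mark matches on either strand to the E-box CACGTG, the E'-box CACGTT, the D-box TTATGNAA, the half-site AGGTCA of REV-ERB and ROR receptors, or the cAMP response element TGACGTCA. The stretches are chr11:98775378-98775627 (minus strand) for Nr1d1, chr14:18239128-18239356 (minus) for Nr1d2, chr10:85185065-85185304 (minus) for Cry1 and chr11:69098699-69098947 (plus) for Per1.
Nr1d1: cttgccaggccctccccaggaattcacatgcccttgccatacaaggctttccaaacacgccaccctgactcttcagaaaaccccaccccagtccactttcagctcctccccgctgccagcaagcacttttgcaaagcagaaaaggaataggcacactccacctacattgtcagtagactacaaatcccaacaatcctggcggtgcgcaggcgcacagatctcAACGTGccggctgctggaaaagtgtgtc
Nr1d2: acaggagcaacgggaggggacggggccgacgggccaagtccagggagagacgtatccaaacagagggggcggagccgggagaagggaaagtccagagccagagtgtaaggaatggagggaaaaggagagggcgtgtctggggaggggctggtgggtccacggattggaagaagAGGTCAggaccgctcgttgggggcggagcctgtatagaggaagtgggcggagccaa
Cry1: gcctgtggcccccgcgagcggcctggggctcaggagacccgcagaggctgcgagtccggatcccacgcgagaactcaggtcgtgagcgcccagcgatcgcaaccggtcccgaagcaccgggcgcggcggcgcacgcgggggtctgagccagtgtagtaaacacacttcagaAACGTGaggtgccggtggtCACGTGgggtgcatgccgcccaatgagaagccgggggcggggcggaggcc
Per1: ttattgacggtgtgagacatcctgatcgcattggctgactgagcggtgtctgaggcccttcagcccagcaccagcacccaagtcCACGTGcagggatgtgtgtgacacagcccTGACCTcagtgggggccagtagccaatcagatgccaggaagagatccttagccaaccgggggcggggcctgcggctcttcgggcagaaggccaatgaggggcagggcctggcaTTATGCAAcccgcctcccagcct

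Promoter entries were matched for 9 of the 10 genes, in 13 windows of 250 bases, since some genes have several start sites and windows of 1 gene can overlap. Nr1d1 held an E'-box, on the reverse strand, whose first base lay 28 bases before the start. Cry1 held an E-box at 60 bases and a reverse-strand E'-box at 79 bases, Cry2 a reverse-strand E'-box at 166 bases, and Per1 an E-box at 166 bases. D-boxes stood in Per1 at 24 bases and in Per3 at 205 and 158 bases. The half-site was found in Nr1d2 at 77 bases and, on the reverse strand, in Per1 at 137 bases and in 1 window of Clock at 119 bases. The E-box was thus in 2 of 13 windows and the E'-box in 3 of 13, against 6.02% and 3.85% of all 32851 promoter windows. The D-box was in 2 and the half-site in 3, against 3.07% and 14% of all windows, and the cAMP response element was in 0, against 1.55%. These matches describe letters in a window and not bound sites. An E'-box stood before Nr1d1, which rose, and before Cry1 and Cry2, whose induced libraries lay below the controls.

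Among the activators, Arntl (ENSMUSG00000055116, chromosome 7) had 829.9 and 708 normalized reads in the controls against 563 and 636 in the induced cells. All induced values were below the controls, although the 2 controls differed from each other by more than the nearest control and induced library did. The log2 fold change of -0.36 (SE 0.12) did not pass (adjusted p = 0.211), with a 95% interval of the ratio of 0.631 to 0.967 that is not adjusted for the number of genes. It was -0.24 without control replicate 1 and -0.47 without control replicate 2. Arntl was the least abundant of the 9 tested genes per kilobase in both groups, at 102 ± 11.5 in control and 79.7 ± 6.85 in induced cells. Its exons share 33 bases with Gm45355 on the opposite strand, which had 0 to 1 reads per library.

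Clock (ENSMUSG00000029238, chromosome 5), which encodes the partner of BMAL1, had 2143 and 3275 normalized reads in the controls against 2153 and 3277 in the induced cells. The groups overlapped fully, with a log2 fold change of 0.00 (SE 0.26, adjusted p = 0.995), and the interval of the ratio ran from 0.641 to 1.57. The sign of this value changed with the scaling between libraries. It was -0.30 without control replicate 1 or induced replicate 2, and 0.31 without control replicate 2 or induced replicate 1.

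Npas2 (ENSMUSG00000026077, chromosome 1), a relative of Clock best known from the forebrain, had 0 reads in both controls and 2 and 3 reads in the induced libraries. A count of 0 allows up to 0.116 and 0.0967 CPM in the 2 controls, for counting error only, and the induced libraries stood at 0.0665 and 0.0851 CPM. All libraries were at or under the level of 3 reads, so no fold is given.

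The cryptochromes bind the activator pair and block it. Cry1 (ENSMUSG00000020038, chromosome 10) had 595 and 589 normalized reads in the controls against 423 and 396 in the induced cells. The controls were within 1.02-fold of each other and the induced libraries were both lower, with a ratio of means of 0.692 (interval 0.578 to 0.829). The log2 fold change was -0.53 (SE 0.11), second in size to that of Nr1d1, and did not pass over all genes (adjusted p = 0.0625). It passed in 0 of 13 alternative analyses (adjusted p = 0.0612 to 0.241), with log2 fold changes of -0.58 to -0.48.

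Cry2 (ENSMUSG00000068742, chromosome 2) had 1100.3 and 1149 normalized reads in the controls against 879.7 and 956 in the induced cells. Both induced libraries were lower, by a ratio of means of 0.816 (interval 0.700 to 0.951; log2 fold change -0.29, SE 0.09, adjusted p = 0.165). Per kilobase the cryptochromes had the same level in control cells, 178 ± 5.45 for Cry2 and 177 ± 1.29 for Cry1. In induced cells they stood at 145 ± 8.55 and 123 ± 5.72, and their ranges no longer overlapped. The exons of Cry2 share 295 bases with D930015M05Rik on the opposite strand, which had 11.3 to 19.0 normalized reads over the libraries.

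The Period genes lay on both sides of 0. Per1 (ENSMUSG00000020893, chromosome 11), the Period gene best known as a target of cAMP signalling, had 1183 and 1107 normalized reads in the controls against 1217 and 1376 in the induced cells. The induced libraries were higher by a narrow margin (ratio of means 1.13, interval 0.958 to 1.33, log2 fold change 0.18, SE 0.10, adjusted p = 0.382). Per2 (ENSMUSG00000055866, chromosome 1), whose product is the scaffold of the repressor complex, had 700.4 and 660.3 in the controls against 533 and 604 in the induced cells. Here the induced libraries were lower, with a ratio of means of 0.835 (interval 0.690 to 1.01, log2 fold change -0.26, SE 0.11, adjusted p = 0.279).

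Per3 (ENSMUSG00000028957, chromosome 4), which is dispensable for rhythms in many tissues, had 3324 and 3086 normalized reads in the controls against 3355 and 3345 in the induced cells. Both induced values exceeded the higher control by a narrow margin, and the interval of the ratio was 0.930 to 1.18 (log2 fold change 0.06, SE 0.07, adjusted p = 0.656). Per kilobase Per3 was the most abundant Period gene, at 334 ± 17.5 in control cells, ahead of Per1 at 203 ± 9.60 and Per2 at 116 ± 4.84. The ratio of Per1 to Per2 per kilobase was 1.76 and 1.74 in the control libraries and 2.37 and 2.37 in the induced ones. This ratio varied by less within a group than either gene did, and was higher in both induced libraries. It was formed after the values had been seen. The two-sided exact permutation test of the log ratio gave p = 0.333, the smallest that 2 against 2 can give.

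The order of levels per kilobase in control cells was Nr1d2, Nr1d1, Per3, Per1, Clock, Cry2, Cry1, Per2 and Arntl, with Npas2 last. The ranges of neighbours overlapped between Per1 and Clock, between Clock and Cry2 and between Cry2 and Cry1, and the other neighbours were apart. In induced cells Nr1d1 and Nr1d2 changed places and the rest of the order stayed, with Per1 and Clock the neighbours that overlapped. Set against Arntl, the gene its product represses, Nr1d1 was 4.30 and 5.46 times as abundant per kilobase in the control libraries and 12.5 and 11.6 times in the induced ones. Against Cry1 the same ratio was 2.67 and 2.91 in the controls against 7.39 and 8.24 in the induced cells. Nr1d1 and Cry1 had the highest and lowest log2 fold change of the tested clock genes, so this ratio joins the extremes of the same data. For both ratios the two-sided exact permutation test of the log ratio gave p = 0.333, the smallest that 2 against 2 can give.

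The tested clock genes rested on 389 to 4881 reads per library, which gives the difference between 2 libraries a counting error of 0.03 to 0.10 on the log2 scale. In 8 of the 9 genes the replicates of a group differed by at most 0.23. Clock was the exception. Replicate 2 exceeded replicate 1 by 0.61 in the controls and by 0.61 in the induced cells, 14.1 and 14.96 times the counting error. A difference of at least 0.5 in the same order of replicate numbers in both groups was seen in 1.10% of tested genes, in 57 with replicate 2 higher and in 89 with replicate 1 higher. What sets the Clock libraries apart was not tested.

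**Figure D3:**
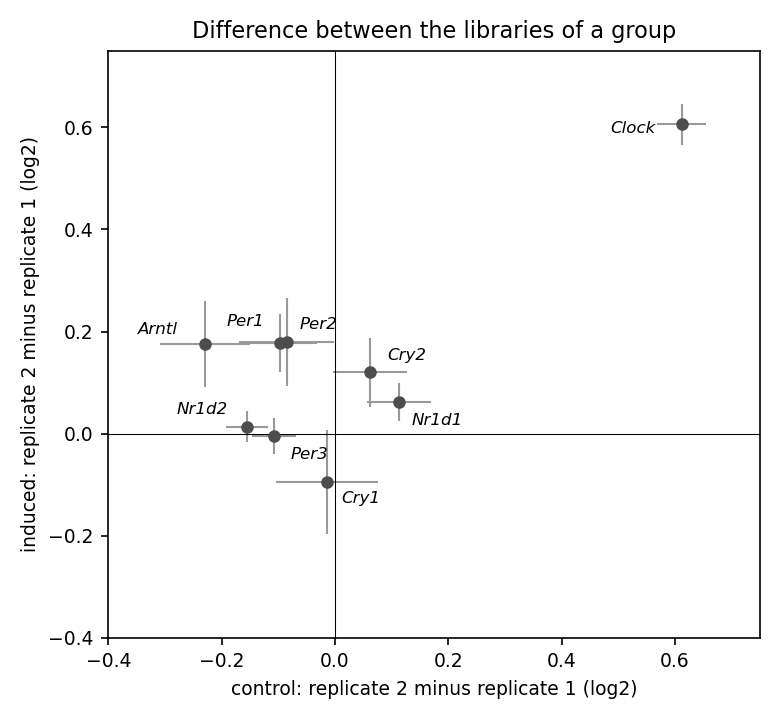
Difference between the 2 libraries of a group for each tested clock gene, controls on the horizontal and induced cells on the vertical axis, both as log2 of normalized reads. Bars are 1 counting standard error. Clock lies at 0.61 on both axes, and the other 8 genes lie within 0.23 of 0.

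Around the core genes, 4 lists of clock-related genes were read from the same fit. The lists were chosen with earlier results of these data known, so their share of calls cannot show an excess. Of 59 genes, 52 were tested and 5 passed, 4 higher and 1 lower, a share of 9.62% against 3.42% of all tested genes. Each of these calls was kept in 5 to 10 of 13 alternative analyses. In limma without the expression filter only Gsk3b was called. In limma without a variance trend 0 were called, with 9 of 52 at an unadjusted p under 0.05. In the main fit 12 of 52 were under it, against 19.1% of all tested genes.

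The first list holds the secondary loop and output factors, of which 9 of 13 were tested, 1 rose, 0 fell and 8 did not pass (median log2 fold change 0.0095). Under 1 CPM were the ROR receptor genes Rora (0 to 3 reads per library) and Rorb (0 to 5 reads), and Bhlhe41 and Arntl2. With 2 of the 9 tested at an unadjusted p under 0.05 (19.1% of all tested genes), 0 of them lower, limma voom also called 0 lower. Dbp, a D-box activator and a classic E-box output of the clock, had 1063 and 1040.5 normalized reads in the controls against 1421 and 1437 in the induced cells. It rose by 0.44 on the log2 scale (SE 0.08, adjusted p = 0.0434), a call that ended when any 1 library was left out (adjusted p = 0.0954 to 0.180). Its exons share 539 bases (18.0%) with Sphk2 on the opposite strand, which had 661 and 746 normalized reads in the controls against 758 and 829 in the induced cells (adjusted p = 0.443). Tef, another D-box factor, had 3727 and 4717 in the controls against 5093 and 5424 in the induced cells (adjusted p = 0.224). Nampt, which makes the NAD precursor, had a ratio of means of 0.877 (adjusted p = 0.299), and the E-box repressor gene Bhlhe40 one of 0.953 (adjusted p = 0.788).

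In the second list, the kinases and ubiquitin enzymes that act on clock proteins, 15 of 17 genes were tested, 2 rose, 0 fell and 13 did not pass (median log2 fold change -0.02). With 4 of the 15 tested at an unadjusted p under 0.05 (19.1% of all tested genes), 2 of them lower, limma voom also called 0 lower. Gsk3b, a kinase that phosphorylates several clock proteins, had 4995 and 4742 normalized reads in the controls against 7027 and 6960.1 in the induced cells. It rose 1.44-fold, with both induced libraries far above the controls (log2 fold change 0.52, SE 0.06, adjusted p = 0.0179). The call ended without induced replicate 1 or induced replicate 2 (adjusted p up to 0.0557). Usp7, a deubiquitinase that acts on cryptochromes, rose 1.30-fold from 5700.2 and 5405 to 7037 and 7369 (adjusted p = 0.0415), and leaving out any 1 library ended that call (adjusted p up to 0.180). The casein kinase genes Csnk1a1, Csnk1d and Csnk2a1, whose enzymes set the pace of the clock or modify its proteins, had ratios of means of 1.09, 1.07 and 0.908 (adjusted p = 0.312, 0.496 and 0.291). Gsk3b and Usp7, the 2 called genes of this list, both lie on chromosome 16. So does the cofactor gene Crebbp, with a ratio of means of 1.13 that did not pass (adjusted p = 0.300). Whether the shared chromosome bears on the calls of Gsk3b and Usp7 was not tested.

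Of the clock cofactors, 13 of 14 were tested and 0 passed in limma or in limma voom (median log2 fold change 0.06). In each fit 2 of the 13 were at an unadjusted p under 0.05, against 19.1% of all tested genes in the main fit. Ncor1, the corepressor that REV-ERB proteins recruit, had 7908 and 7928 normalized reads in the controls against 6918 and 7416 in the induced cells (adjusted p = 0.294). The RNA-binding partners of the Period proteins, Sfpq and Nono, had ratios of means of 1.12 and 1.04 (adjusted p = 0.261 and 0.655).

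The fourth list follows the cAMP and immediate early genes that carry signals to the clock, chiefly to Per1. All 15 were tested, 1 rose, 1 fell and 13 did not pass (median log2 fold change -0.08). Junb, a subunit of the AP-1 factor, had 1291 and 1415 normalized reads in the controls against 2269 and 2075 in the induced cells (log2 fold change 0.68, SE 0.09, adjusted p = 0.0226). Egr1, a zinc finger factor of the early response, had 2496 and 2682 in the controls against 1806 and 1641 in the induced cells (log2 fold change -0.59, SE 0.08, adjusted p = 0.0280). The groups were apart for both genes, in opposite directions. Without control replicate 1 or induced replicate 1 Junb was not called (adjusted p up to 0.0638), and without control replicate 1, control replicate 2 or induced replicate 2 neither was Egr1 (up to 0.0847). The exons of Junb share 173 bases with Prdx2 on the opposite strand, which had a ratio of means of 1.06 (adjusted p = 0.532). The CREB partner gene Crtc2, the kinase gene Sik3 and the CREB relative Atf1 had ratios of means of 0.945, 0.932 and 0.889 (adjusted p = 0.610, 0.783 and 0.298). The largest log2 fold change of the list was that of Dusp1, at -0.78 (SE 0.15), and it did not pass (adjusted p = 0.0553). For Creb1 the controls were far apart, at 2506 and 776 normalized reads, against 1333 and 1982 in the induced cells (adjusted p = 0.857).

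**Figure D4:**
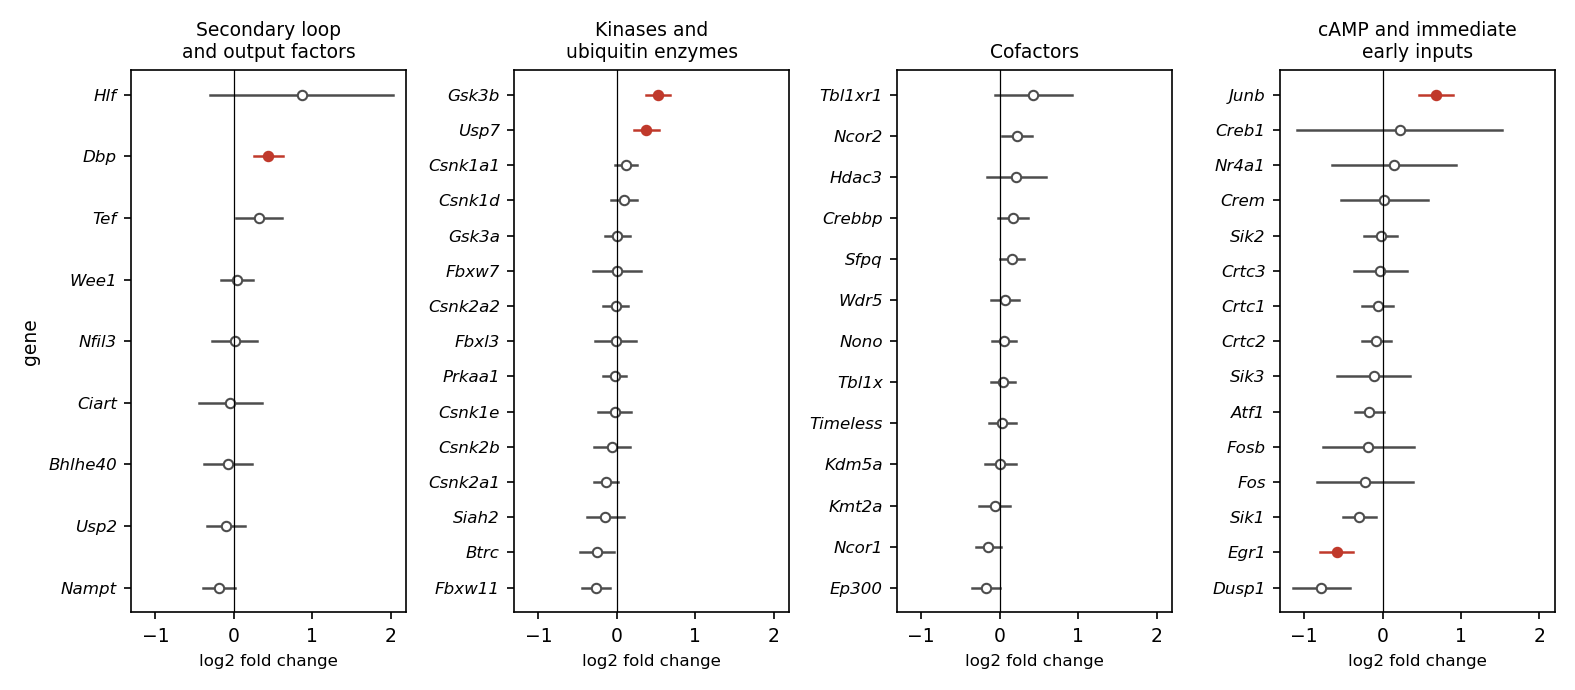
Log2 fold change of induced against control cells for the 52 tested genes of the 4 clock-related lists, with unadjusted 95% confidence intervals. Filled points are the 5 genes past the threshold: Dbp, Gsk3b, Usp7 and Junb above 0, and Egr1 below.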

How the data were processed

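RNA of 4 HT-22 libraries, 2 per group, was sequenced from TruSeq RNA libraries, per the labels' protocols. HISAT and Cufflinks, without versions, and build mm9 are named in the submitters' processing notes, while for the read counter and the scaling nothing is stated in the labels. The authors deposited log2 values of normalized reads with a pseudocount of 1. With 2 raised to a value and 1 subtracted, 100% of values above 0 were whole multiples of 1 step per library (tolerance 0.01), which gave back whole reads. The filter kept genes whose mean over libraries reached 1 CPM, and the test was limma (version 3.58.1, R 4.3.3) applied to the log2 values, with a variance trend, no covariate, two-sided p-values and Benjamini-Hochberg adjustment over 13276 genes (threshold 0.05). On simulated data the fit called 58.2% of 1.5-fold and 98.5% of 2-fold changes, and 3.93% of its calls were false. The simulation gave every gene the same spread beyond counting error. It therefore does not cover genes with far apart replicates, such as Clock. The pseudocount understates changes of genes with few reads. Folds are ratios of mean normalized reads.

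Lengths and exon overlaps came from GENCODE M21 (GRCm38), matched by gene identifier, so lengths may differ from the models the authors counted. They merge the exons of all annotated transcripts, so they can exceed the length of the transcripts present. The 10 genes and the 4 related lists were chosen with earlier results of these data known. Named were the 10 genes, in each list up to 4 past the threshold and up to 3 others of highest mean, Pja2, and genes whose exons overlap those of 1 of the 10. Other genes, such as Sphk2 and Prdx2, which overlap related genes, and cell type markers, were named after their values were seen. So were Dusp1, Creb1, Crebbp and the genes of the first list under 1 CPM. Related genes without a row were not analysed here, and 1 gene of the related lists is not reported here. Alternatives covered the filter, the test, the scaling, the pseudocount, a replicate block and each library left out. Intervals for reads and zero counts cover counting error only.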

Additional observations from a re-analysis of the deposited data

How the results depend on the processing

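The number of clock genes called was 1, Nr1d1, in all 13 alternatives. The 9 clock genes kept their direction and their side of the threshold except for the sign of Clock, which was -0.00492 with limma voom, -0.00329 with CPM on library totals, -0.0153 with quantile normalization and -0.30 to 0.31 with 1 library left out, and which was not called in any. Over all genes the 454 calls (276 higher, 178 lower) became 159 (100 and 59) without the filter, 116 (64 and 52) without a variance trend, and 236 to 314 (114 to 210 higher, 81 to 138 lower) with 1 library left out. The 5 calls among related genes (4 higher, 1 lower) became 1 (1 and 0) without the filter and 0 without a trend (0 higher, 0 lower). Without a trend 9 of 52 were at an unadjusted p under 0.05, against 19.1% of all tested genes in the main fit. Of the 17 related genes named by the rule, those whose log2 fold change turned were Bhlhe40 (-0.226 to 0.0776 with 1 library left out) and Sik3 (-0.371 to 0.139), and single values of the other related genes were not compared. The causes were not tested. A fit with 1 library left out assumes that the lone sample of a group varies like the other group.

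Same-numbered libraries did not deviate together across genes (correlation of the differences between replicates -0.10). This value is taken over all tested genes, so it cannot decide whether the numbers pair the samples. Clock did differ in the same order in both groups. A replicate block gave 261 calls over all genes (157 higher, 104 lower) and 2 among related genes (2 higher, 0 lower: Gsk3b and Junb), and Nr1d1 kept its call (adjusted p = 0.0113). The SE of the log2 fold change of Clock was 0.083 with the block against 0.26 without it, so the width of its interval depends on this choice. The tested clock genes had 389 or more reads per library, a counting error of at most 0.10 on the log2 scale for a difference of 2 libraries, while Npas2 was at the limit of detection.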
